A study of Neogale vison with 6 samples.

Results

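The ATG12-ATG5-ATG16L1 conjugation system was followed through the mRNA levels of its 5 genes, ATG5, ATG7, ATG10, ATG12 and ATG16L1. Its members were taken by symbol from the deposited count table, where each symbol marked 1 of the 24526 genes (ATG5 ENSNVIG00000003945, ATG7 ENSNVIG00000023462, ATG10 ENSNVIG00000000443, ATG12 ENSNVIG00000015011 and ATG16L1 ENSNVIG00000004487). The table holds RNA-seq read counts of Mv1Lu, a mink lung epithelial cell line, with 3 untreated (control) libraries and 3 libraries of cholesterol depletion (CD). For CD, cells were kept for 16 h with 50 μM of lovastatin, an inhibitor of HMG-CoA reductase, and 50 μM of mevalonate, the product of that enzyme, in medium with 10% lipoprotein-deficient serum (LPDS). The labels call the control cells untreated, so the effects of the statin, of mevalonate and of LPDS cannot be told apart. No label says whether the libraries came from separate cultures, so that the p-values measure only the spread between these libraries. In bulk RNA, a change in the number of cells that express a gene and a change in the RNA per cell cannot be told apart.

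This system is a relative of ubiquitin conjugation. ATG7, the E1-like enzyme, activates the ubiquitin-like protein ATG12, and ATG10, the E2-like enzyme, passes it to a lysine of ATG5. The ATG12-ATG5 conjugate binds ATG16L1, which brings it to the growing phagophore. There, the complex acts as an E3-like enzyme that attaches LC3 and its relatives to phosphatidylethanolamine, a reaction for which ATG7 and the E2-like enzyme ATG3 are also needed. Steady-state cells are known to hold most of their ATG12 and ATG5 as the conjugate, which RNA levels do not show.

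The libraries held between 13473820 and 18633764 reads on genes. The share of unmapped reads lay between 4.25% and 18.4% in the control and between 3.54% and 9.37% in the CD libraries, and its part in the results was not tested. Of 6 genes that respond to sterols, 5 were called higher in CD, and HMGCS1 rose from 130 ± 15.6 to 1403 ± 239 CPM (read counts scaled to a common library size by TMM; mean ± SD, n = 3 each). Of the epithelial markers, KRT19 had 935 ± 66.9 CPM without and 458 ± 77.0 CPM with CD, whereas EPCAM, CDH1 and CLDN7 had at most 6 counts in any library. KRT8 and KRT18 were not matched by symbol. Over the 4 matched markers, the sum ranged from 883 to 1011 CPM without and from 379 to 533 CPM with CD, nearly all of it KRT19. Of 10 markers of immune, endothelial, fibroblast and muscle cells, PTPRC and CDH5 had at most 1 count in any library, and their sum ranged from 118 to 148 CPM without and from 62.0 to 79.0 CPM with CD. Of the 6 of these that were tested, CD68 and CSF1R were called higher and COL1A1 and COL3A1 lower. The part of these shifts in the results below was not tested.

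All 5 members passed the filter on low counts and had a higher mean in CD than in control cells. Of the 5, 3 were called higher (ATG10, ATG5 and ATG16L1) and 2 were not called (ATG12 and ATG7) by edgeR's quasi-likelihood fit to 12148 genes (FDR threshold 0.05). Over all tested genes, 24.8% were called higher and 22.9% lower. None of the members was called lower, and none had an unadjusted p under 0.05 in that direction, in edgeR, nor was any called lower by DESeq2. The median log2 fold change (log2FC) was 0.43 over the members and 0.06 over all tested genes. For 4 of the 5 members all CD libraries lay above all control libraries, which held for 29.5% of the tested genes, while 28.6% showed the opposite. With 1 library left out, the number of members called higher was 0 without control replicate 3, 1 without control replicate 1, CD replicate 1 or CD replicate 2, 2 without control replicate 2 and 3 without CD replicate 3. Over all tested genes, the number called higher moved as well, from 3016 of 12148 to 2216 of 12297 without control replicate 3. It was 2265 of 12343 and 2391 of 12319 without control replicate 1 or 2. Without CD replicate 1, 2 or 3 it was 3078 of 12254, 2498 of 12280 and 3616 of 12330. With 3 libraries against 3, the two-sided exact permutation p of a single gene is at least 0.1, so the calls depend on edgeR's estimate of the spread, which draws on all genes. Summed over the 5 genes, the control libraries stood at 151, 154 and 148 CPM and the CD libraries at 189, 183 and 183 CPM, with most of these reads on ATG7 and ATG16L1. Levels are compared here between groups and not between genes, since no transcript lengths of the authors' assembly were at hand.

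**Figure D1:**
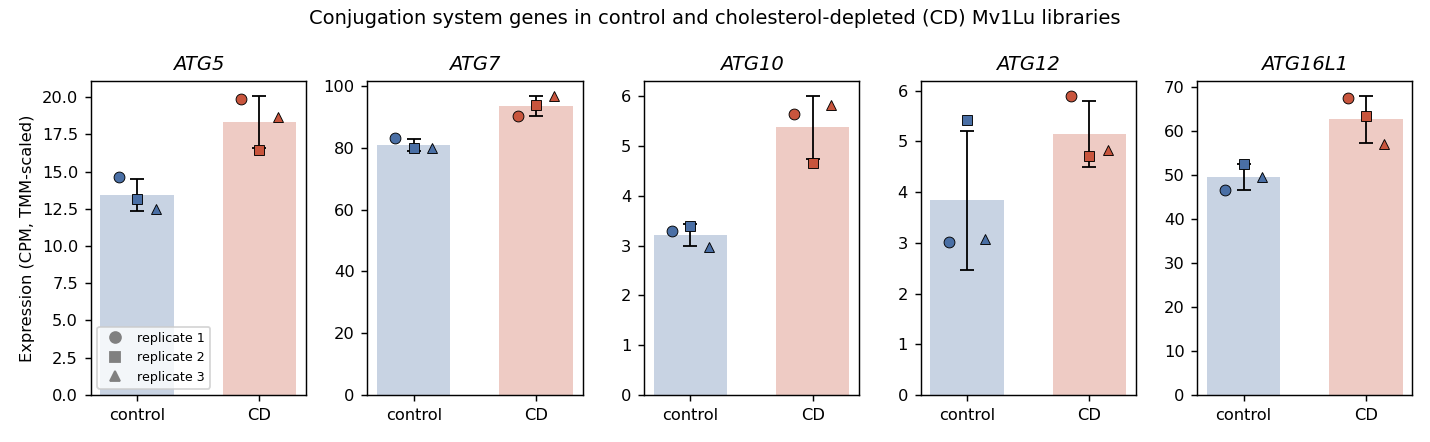
Expression of the 5 genes in each library (points, shaped by replicate number), in CPM after TMM scaling, with the mean (bars) and SD (error bars) of 3 libraries per group and an own axis from 0 for each gene. All CD points lie above all control points for ATG5, ATG7, ATG10 and ATG16L1, but not for ATG12, where control replicate 2 stood at 5.42 CPM.

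ATG10, which carries ATG12 to ATG5, had the largest change of the 5. It was counted 46, 47 and 54 times in control replicates 1, 2 and 3 and 92, 76 and 81 times in CD replicates 1, 2 and 3. Scaled, the control libraries had 3.29, 3.39 and 2.97 CPM and the CD libraries 5.65, 4.66 and 5.83 CPM. The lowest CD library thus stood 1.37 times above the highest control library. The mean rose from 3.22 ± 0.220 to 5.38 ± 0.630 CPM (SD, n = 3 each; log2FC 0.74, SE 0.20, 95% interval 0.30 to 1.18, FDR 0.0116, edgeR), or 1.67-fold. Of the tested genes, 16.8% had a higher log2FC. With 147 and 249 counts in the groups, counting error alone gives a standard error of 0.15. ATG10 was not called without control replicate 3 (log2FC 0.68, FDR 0.0608, edgeR), and was called in the other 15 of 16 alternative settings. These 16 settings include reads recovered from the authors' normalized signal, which equal the deposited counts and could hardly change a call.

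ATG5, the acceptor of ATG12, was at 14.6, 13.1 and 12.5 CPM in control replicates 1, 2 and 3 and at 19.9, 16.4 and 18.6 CPM in CD replicates 1, 2 and 3. Here too the groups did not overlap, although CD replicate 2 stood only 1.12 times above control replicate 1. The mean rose from 13.4 ± 1.08 to 18.3 ± 1.76 CPM (SD, n = 3 each; log2FC 0.45, SE 0.16, 95% interval 0.10 to 0.80, FDR 0.0378, edgeR). Counting error (613 and 851 counts) gives 0.08 of standard error. The call was lost in 7 of 16 alternative settings. It was lost when control replicate 1, 2 or 3 or CD replicate 1 or 2 was left out, with an FDR of 0.0785, 0.116, 0.143, 0.0719 and 0.0562, and the log2FC then lay between 0.40 and 0.51.

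ATG16L1, which places the conjugate on the membrane, reached 46.5, 52.6 and 49.6 CPM in control replicates 1, 2 and 3, against 67.6, 63.4 and 57.1 CPM with CD. CD replicate 3, the lowest of its group, stood 1.09 times above control replicate 2, the highest of the control. The mean went from 49.6 ± 3.02 to 62.7 ± 5.30 CPM (SD, n = 3 each; log2FC 0.34, SE 0.12, 95% interval 0.07 to 0.61, FDR 0.0414, edgeR). Of the 3 calls, it was the closest to the threshold. It was lost in 11 of 16 alternative settings, with an FDR of 0.0661 in DESeq2 and in edgeR of 0.179, 0.0753 and 0.123 when control replicate 1, 2 or 3 was left out, and of 0.0782 and 0.136 when CD replicate 1 or 2 was. Without CD replicate 3 the FDR was 0.00589 and the log2FC 0.37.

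ATG12, the ubiquitin-like protein itself, was counted 42, 75 and 56 times without and 96, 77 and 67 times with CD. In CPM these were 3.01, 5.42 and 3.08 in the control and 5.90, 4.72 and 4.82 in CD replicates 1, 2 and 3. Control replicate 2 stood above CD replicates 2 and 3, while the other control libraries stood below all CD libraries. The coefficient of variation over the control libraries was 35.7%, against 2.30% to 8.05% for the other 4 members. The means were 3.84 ± 1.37 and 5.15 ± 0.651 CPM (SD, n = 3 each; log2FC 0.43, SE 0.26, 95% interval -0.15 to 1.02, FDR 0.199, edgeR). The fitted change was thus close to that of ATG5, but with a wider interval. Without control replicate 2, the log2FC of ATG12 was 0.75 (FDR 0.0405, edgeR), and without control replicate 1 or 3 it was 0.29 each (FDR 0.492 and 0.497). With 173 and 240 counts, counting error alone gives a standard error of 0.14.

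ATG7, the E1-like enzyme shared by both conjugation reactions, had the most counts of the 5, 3719 without and 4344 with CD. Control replicates 1, 2 and 3 had 83.1, 79.8 and 80.0 CPM, and CD replicates 1, 2 and 3 had 90.3, 93.7 and 96.7 CPM. The groups did not overlap, but the difference was small, from 81.0 ± 1.86 to 93.6 ± 3.20 CPM (SD, n = 3 each). Its log2FC of 0.21 (SE 0.10) came with an FDR of 0.125 in edgeR, and ATG7 was called in none of 16 alternative settings, where the FDR lay between 0.0711 and 0.311. Its 95% interval reached from 0.984-fold to 1.36-fold, which leaves room for no change and for a modest rise, but not for a doubling (2-fold). The upper ends of the intervals were 1.53-fold for ATG16L1, 1.74-fold for ATG5, 2.02-fold for ATG12 and 2.27-fold for ATG10.

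**Figure D2:**
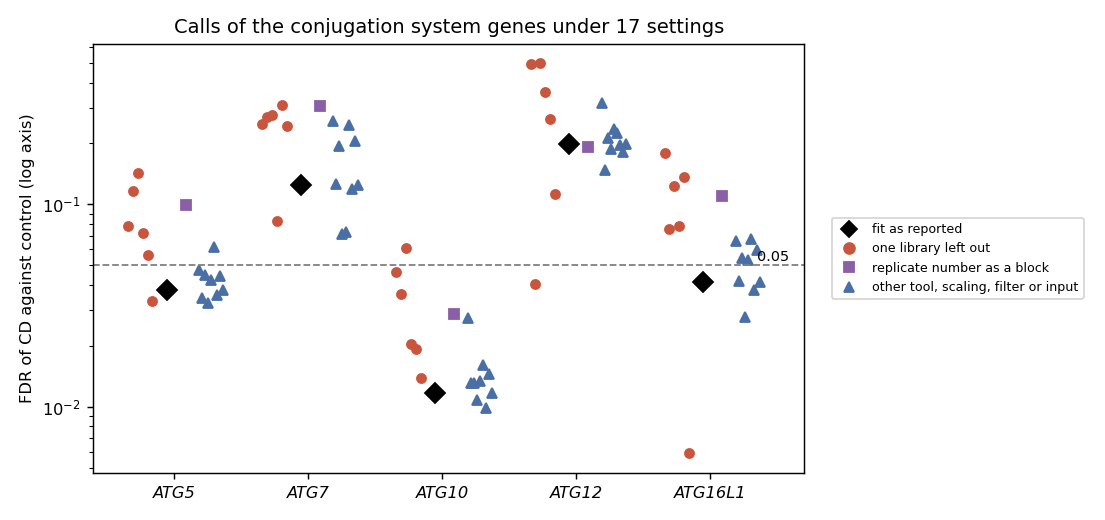
FDR of CD against control for the 5 genes (log axis; dashed line, 0.05) in the edgeR fit as reported (diamonds) and in 16 alternative settings, with 1 library left out (circles), the replicate number as a block (squares) or another tool, scaling, filter or input (triangles). ATG7 stays above 0.05 throughout, ATG10 goes above it once and ATG12 below it once, whereas ATG5 and ATG16L1 lie on both sides.

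The CD libraries did not rank alike across the members. CD replicate 1 was the highest for ATG5, ATG12 and ATG16L1, and CD replicate 3 for ATG7 and ATG10, while CD replicate 3 was the lowest for ATG16L1 and CD replicate 1 for ATG7. To ask whether the genes changed in proportion, the ratio of the counts of each pair of members was taken within each library, which does not depend on the scaling between libraries. Of the 10 pairs, 3 had ratios that did not overlap between the groups, and all of these involve ATG10. How often ratios of other gene pairs separate the groups was not computed, so this count is not read as particular to the members. The log2 ratio of ATG10 to ATG16L1 went from -3.81, -3.94 and -4.05 in control replicates 1, 2 and 3 to -3.57, -3.76 and -3.28 with CD, a difference of 0.39 (standard error 0.15). The log2 ratio of ATG7 to ATG10 fell by 0.52 (standard error 0.12), from 4.64 ± 0.0983 to 4.12 ± 0.177, and that of ATG5 to ATG10 fell by 0.28 (standard error 0.07), from 2.05 ± 0.0983 to 1.76 ± 0.0809 (SD, n = 3 each). ATG10 thus had more counts relative to each of the other 3 genes in every CD library than in any control library. Each of these 3 pairs had p = 0.1, the smallest that the two-sided exact permutation test allows for 3 libraries against 3, and an adjusted p of 0.333 over the 10 pairs, which share members. For the remaining 7 pairs the ratios overlapped. ATG5 and ATG16L1, which act as 1 complex, differed in their log2 ratio by 0.11 between the groups (standard error 0.14, exact permutation p = 0.5), and for ATG5 and ATG12 the difference was -0.02 with a standard error of 0.30 (exact permutation p = 1). With 1 library left out, the difference for ATG5 and ATG16L1 lay between 0.0298 (without CD replicate 3) and 0.218 (without control replicate 1), and that for ATG5 and ATG12 between -0.31 and 0.19.

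**Figure D3:**
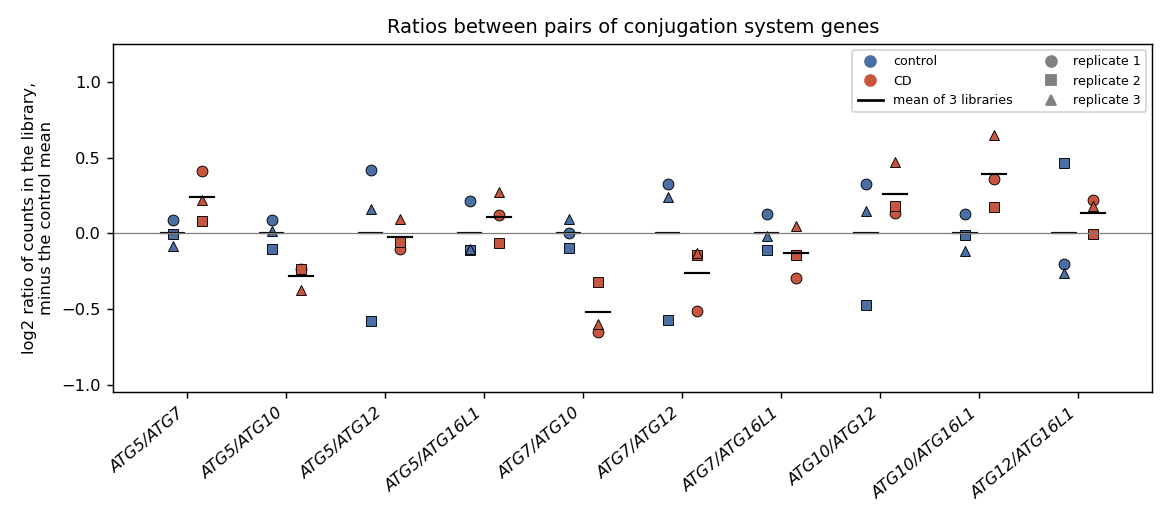
Log2 ratio of the counts of 2 members in the same library, minus the mean of the 3 control libraries, for the 10 pairs (points, shaped by replicate number; black lines, mean of 3 libraries). Control and CD points are separate for ATG5/ATG10, ATG7/ATG10 and ATG10/ATG16L1, and control replicate 2 stands apart from the other control libraries in the pairs with ATG12.

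The LC3 lipidation arm, which the ATG12-ATG5-ATG16L1 complex serves, was examined as a list of 11 genes (ATG3, the ATG4 proteases and the ATG8 family). By symbol 7 were found, ATG3 and GABARAPL1 were found by their descriptions in the table, and 8 were tested. By edgeR, 4 of these 8 were called higher and 1 lower (24.8% and 22.9% over all tested genes), with a median log2FC of 0.71. The higher genes were GABARAPL1 (112 ± 1.85 to 543 ± 37.4 CPM, log2FC 2.28), MAP1LC3A (1.27) and GABARAPL2 (1.08), all of the ATG8 family, and the protease ATG4A (1.01). Each of the 4 had a larger log2FC than any member of the conjugation system, and each was called in all 16 alternative settings. ATG3, the E2-like enzyme of this arm and the counterpart of ATG10, went from 34.8 ± 3.66 to 46.2 ± 9.20 CPM (SD, n = 3 each; log2FC 0.41, 95% interval 0.04 to 0.77, FDR 0.0627, edgeR) and was not called. Without CD replicate 1 the log2FC of ATG3 was 0.49 (FDR 0.0433, edgeR), and without CD replicate 3 it was 0.20. The gene called lower was the protease ATG4B (log2FC -0.31, FDR 0.0382, edgeR), a call that was lost in 6 of 16 alternative settings. Leaving out control replicate 1, 2 or 3 or CD replicate 1 gave an FDR of 0.125, 0.0578, 0.143 and 0.0688. ATG4C and ATG4D were not called, although ATG4C was without CD replicate 2 (log2FC 0.66, FDR 0.0490, edgeR), and MAP1LC3C had 1 count in all.

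A second list held 14 genes whose products bind, recruit or cleave the members. Of these, 12 were found and 10 were tested, and edgeR called 6 of them higher and none lower (24.8% and 22.9% over all tested genes). None was lower at an unadjusted p under 0.05 or in DESeq2 either. The median log2FC of the list was 0.44. Like the other lists, it was chosen with earlier results of these data known. RB1CC1, a scaffold of the ULK complex that binds ATG16L1, rose from 17.4 ± 3.03 to 44.5 ± 12.3 CPM (SD, n = 3 each; log2FC 1.36, FDR 7.18e-04, edgeR). WIPI2, which recruits ATG16L1 to phosphatidylinositol 3-phosphate, rose by a log2FC of 0.43 (FDR 0.00770, edgeR) and TMEM59, a membrane protein that binds ATG16L1, by 0.74 (FDR 0.00122, edgeR). TECPR1, which binds the ATG12-ATG5 conjugate in place of ATG16L1, rose by 0.45 (FDR 0.0375, edgeR), a call lost in 7 of 16 alternative settings, among them the omission of control replicate 1, 2 or 3 (FDR 0.153, 0.122 and 0.0600) and that of CD replicate 1 or 2 (FDR 0.0682 and 0.126). CAPNS1, the small subunit of the calpains that cleave ATG5, rose by 0.80 (FDR 2.51e-04, edgeR). The catalytic subunits CAPN1 and CAPN2, with log2FC values of 0.13 and 0.17, were not called, nor was FADD (0.22). ATG16L2, the paralog of ATG16L1, had 5 to 11 counts per library and was below the filter.

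**Figure D4:**
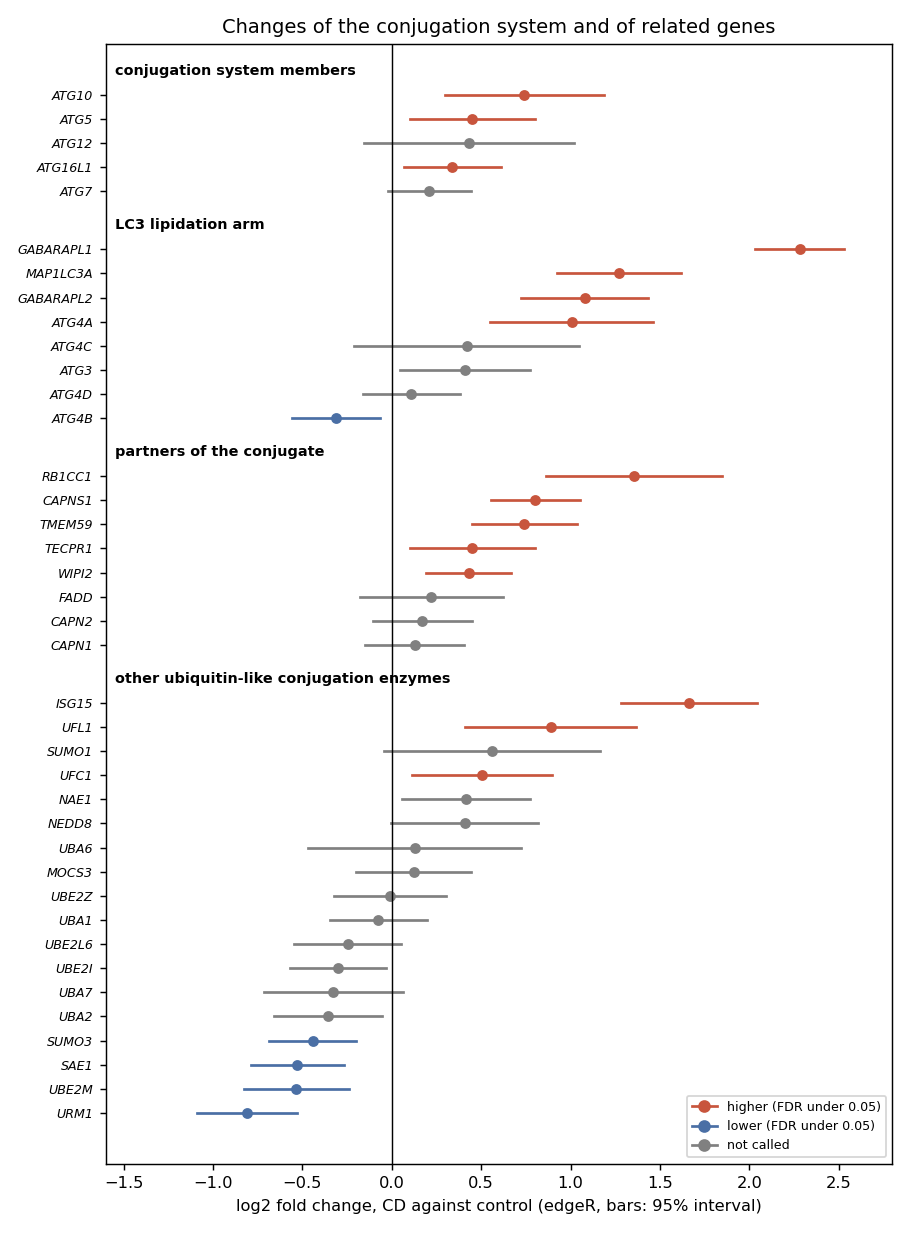
Log2 fold change of CD against control (edgeR, points) with 95% intervals (bars, not adjusted for the number of genes) for tested genes of the 4 lists, coloured by call at an FDR under 0.05. The 5 members lie between 0.21 and 0.74, and the other ubiquitin-like systems spread from -0.81 to 1.66.

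The enzymes and modifiers of the other ubiquitin-like systems (ubiquitin, SUMO, NEDD8, UFM1, ISG15 and URM1) served for comparison. Of 23 listed genes 19 were found and tested, edgeR called 3 higher and 4 lower (24.8% and 22.9% over all tested genes), and the median log2FC was -0.0096. ISG15, an interferon-inducible modifier, rose from 52.8 ± 4.18 to 167 ± 40.3 CPM (SD, n = 3 each; log2FC 1.66, FDR 3.85e-05, edgeR). UFL1 and UFC1, the ligase and the E2 enzyme of UFM1, rose by a log2FC of 0.89 and 0.51 (FDR 0.00681 and 0.0369, edgeR). The call of UFC1 was lost in 5 of 16 alternative settings, among them those without control replicate 1, 2 or 3 or CD replicate 3 (FDR 0.117, 0.0938, 0.0987 and 0.0782), the last of them with a log2FC of only 0.22. The lower genes were URM1 (-0.81), UBE2M, an E2 enzyme of NEDD8 (-0.53), SAE1, a subunit of the SUMO E1 enzyme (-0.53), and SUMO3 (-0.44). UBA1, the main E1 enzyme of ubiquitin, was at 922 ± 71.4 and 875 ± 70.0 CPM and was not called (FDR 0.636, edgeR). Without CD replicate 3, 7 of the 19 were called lower, while over all tested genes the lower calls went from 2784 of 12148 to 3606 of 12330. No difference between the lists was tested.

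The tested genes whose pattern over the 6 libraries was most like that of each member were found by the root mean square difference of log2 CPM after centring each gene on its mean. Nearest to ATG5 were TADA2A (0.0369), AP3B1 (0.0468) and GLT8D1 (0.0564), to ATG7 RNF10 (0.0325), KXD1 (0.0364) and WDR20 (0.0387), and to ATG16L1 DYM (0.0239), TARBP1 (0.0346) and GCNT2 (0.0365). ATG10 was nearest to ATP6V1C1 (0.0444) and TUSC3 (0.0491). The nearest gene to ATG12 was STX17 (0.0590), the syntaxin of autophagosome fusion, followed at a larger distance by ETV1 (0.111) and ETNPPL (0.121). STX17 was itself not called (FDR 0.310, edgeR), and the pattern of ATG12 rests on 42 to 96 counts per library. No member was among the nearest genes of another. The closest pair of members was ATG7 and ATG16L1 (0.136), and the most distant was ATG7 and ATG12 (0.331).

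In the RefSeq annotation of the mink assembly ASM_NN_V1, which is not the assembly used by the authors, all 5 members were found, and none overlaps another protein-coding gene. The flanking protein-coding genes are CRYBG1 and PRDM1 for ATG5, VGLL4 and HRH1 for ATG7, RPS23 and SSBP2 for ATG10, CDO1 and AP3S1 for ATG12, and INPP5D and SAG for ATG16L1. Of these 10 neighbours, 6 were tested and 2 were called, both higher, against 24.8% called higher and 22.9% lower over all tested genes. AP3S1, an adaptor subunit that lies beside ATG12, rose from 10.3 ± 1.23 to 21.4 ± 2.92 CPM (SD, n = 3 each; log2FC 1.05, FDR 7.57e-04, edgeR). PRDM1, a transcriptional repressor beside ATG5, rose by a log2FC of 1.99 from a low level (0.925 ± 0.344 CPM; FDR 5.09e-04, edgeR). VGLL4, beside ATG7, had a log2FC of -0.02. INPP5D, beside ATG16L1, was not called (log2FC -0.35), but without CD replicate 2 it was called lower (log2FC -0.55, FDR 0.0332, edgeR). Inside the span of ATG5, ATG7 and ATG12 the annotation places 1 pseudogene each, in that of ATG10 2 pseudogenes, and in that of ATG16L1 a guide RNA gene. Whether these loci shared reads with the members was not tested.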

How the data were processed

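Per the labels and the paper's methods, poly(A) RNA was sequenced, and the authors trimmed the reads with fastp 0.20.1 and aligned them to mink assembly NNQGG.v01 with STAR 2.7.2a. The deposited raw counts are whole reads per gene. The program that assigned reads to genes, and its use of strand, are not given in the sources used here, so counts of overlapping, antisense or near-identical genes are uncertain. The 4 rows that name no gene (29.3% to 47.2% of reads per library) were left out. The authors also deposited a normalized signal, the count divided by a DESeq2 (1.30.1) size factor. Its identifiers are not in the order of its values, so it was paired with genes by row. Its values gave whole reads within 0.01 for 100% of 147156 values, and edgeR on these reads called 3016 genes higher and 2784 lower of 12146. The recovered reads equal the deposited counts, so this setting repeats the fit as reported and is no independent check.

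Counts were compared with edgeR 4.0.16 (R 4.3.3): filterByExpr (minimum count 10, total 15), TMM, robust glmQLFit and glmQLFTest, condition only, Benjamini-Hochberg over all genes tested, threshold 0.05. Standard errors were the log2 fold change over the square root of F (median 0.18 over the tested genes). Ratios used a pseudocount of 0.5, and centred patterns log2 CPM with a prior count of 2. Replicates differed by more than sampling noise. The chi-square per gene was 9.23 between control replicates 1 and 2, and 37.9 and 25.0 between these and control replicate 3. It was 15.1 between CD replicates 1 and 2, and 72.4 and 47.8 between these and CD replicate 3. The code was checked on simulated counts. The named genes are the 5 members, genes of the lists, for each member the 3 genes most alike, and its neighbours in RefSeq, which were added after the files were seen. Members and lists were chosen with earlier results of these data known. Two-sided exact permutation tests were used for ratios. Alternatives were DESeq2 1.42.0, limma-voom and limma 3.58.1 on log2(normalized expression + 1), 3 other scalings, 2 other filters, leaving out each library in turn, a block for the replicate number, and the recovered reads (chosen after seeing the data). UBA3, UBE2F, UFM1, SUMO2, MAP1LC3B, GABARAP, RAB33B and IRGM were not matched and are not analysed here. A few genes are counted in their lists but not reported by name or value, nor drawn, here.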

Additional observations from a re-analysis of the deposited data

How the results depend on the processing

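Of the 5 members, 3 were called higher in the fit as reported, 1 without the filter on low counts and 1 with the replicate number as a block, and with 1 library left out the number lay between 0 (without control replicate 3) and 3 (without CD replicate 3), with 1 each without control replicate 1, CD replicate 1 or CD replicate 2. Over all tested genes, 3016 of 12148 were called higher as reported, 3168 of 17882 without the filter and 2772 of 12148 with the block. Without control replicate 3 it was 2216 of 12297, and without CD replicate 3 it was 3616 of 12330. No member was called lower, and none changed direction, in the 16 alternatives. ATG5 was not called without the filter (log2 fold change 0.45, FDR 0.0617) or with the block (0.45, FDR 0.0992), and lay between 0.40 and 0.51 with 1 library left out. ATG16L1 was not called with DESeq2 (0.31), DESeq2 size factors (0.32), total counts (0.35), no filter (0.33), the block (0.34) or limma on normalized expression (0.31), and lay between 0.29 and 0.38 with 1 library left out. For ATG10 and ATG12 that range was 0.65 to 0.80 and 0.29 to 0.75. Tests with 1 library left out rest on fewer libraries, and the cause of the other losses was not tested.

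The 1 lower gene of the LC3 arm became 0 without the filter and with the block, and 0 to 1 with 1 library left out, and the 4 lower genes of the other ubiquitin-like systems became 4 to 7. The number of all genes called, 5800 in the fit as reported, was 4410 to 7222 with 1 library left out. Among genes that were not called, the log2 fold change of UBE2Z was 0.0218 with upper quartile scaling and 0.0101 with total counts, against -0.0096, that of VGLL4 was 0.0170 and 0.00144, against -0.02, and with 1 library left out the ranges crossed 0 for UBE2Z (-0.10 to 0.0723), ATG4D (-0.0292 to 0.20), UBA6 (-0.24 to 0.34), CRYBG1 (-0.0436 to 0.42), VGLL4 (-0.0881 to 0.0297) and the ratio of ATG5 to ATG12 (-0.31 to 0.19). Of the 719 values of the 45 other genes under the alternatives, 676 kept their direction and their side of the threshold, 18 lost a call, 14 gained one and 11 changed sign. The 676 include the values from the recovered reads, which repeat the fit as reported. PRDM1 gave no value with the minimum of 50 counts in 3 libraries.

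Equally numbered control and CD libraries gave no sign of pairing. Their deviations from their group means correlated across genes at -0.02, -0.33 and -0.18 for replicates 1, 2 and 3, and no library correlated best with its own number. The labels do not say whether equal numbers were handled together, and correlations from so few libraries cannot decide it. With the block, 2772 genes were higher and 2636 lower. With 42 to 96 counts per library, ATG10 and ATG12 carry a counting error of 0.15 and 0.14 in their log2 fold changes, so that a change of the size found for ATG7 (0.21) could not have been resolved for them.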
